A study of Homo sapiens with 95 samples.

Results

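The annexins are a family of calcium-dependent, phospholipid-binding proteins, and 9 of their genes were followed here, chosen by symbol from the 23895 gene symbols counted in every well: ANXA1, ANXA2, ANXA3, ANXA4, ANXA5, ANXA6, ANXA7, ANXA8 and ANXA11. RNA was counted in 95 wells of AALE cells, a line of immortalized human bronchial epithelial cells, by 3′ digital gene expression (3′DGE), which reads the end of each polyadenylated RNA with a molecular barcode so that each molecule is counted once. The cells formed 8 populations. Those overexpressing NRF2 (NFE2L2), FGFR1, NRG1 or PIK3CA had HcRed cells, which carried the vector with a reporter only, as their control, and the CRISPR knockouts of FAT1 and CDKN2A had GFP cells, which received the Cas9-EGFP plasmid without a guide RNA. Each population was exposed to dimethyl sulfoxide (DMSO, the solvent), to cigarette smoke condensate (CSC, 24 μg/ml), to benzo[a]pyrene (BaP, 173 μM) or to the nitrosamine NNK (490 μM). The sources used here do not say whether a population was grown from 1 clone.

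Annexins share a conserved core that binds acidic phospholipids when calcium rises, and differ in their amino-terminal tails, where S100 proteins and other partners attach. ANXA1 is known as a mediator of the anti-inflammatory action of glucocorticoids and as a substrate of the EGF receptor kinase. ANXA2 forms a complex with S100A10 at the plasma membrane that binds plasminogen and its activator, and ANXA5 binds exposed phosphatidylserine and is widely used to mark dying cells. ANXA1, ANXA2, ANXA5 and ANXA6 take part in the repair of torn plasma membrane, while ANXA4, ANXA7 and ANXA11 are linked to membrane aggregation, secretion and vesicle or RNA granule traffic. Airway epithelium expresses several of these genes at high levels.

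The promoters of the 4 members that passed the tests below most often are shown because these genes sit at different ends of the same comparisons and 2 of them fell with BaP. Each run is the 250 bases before the annotated start site in RefSeq (GRCh38.p14), read 5′ to 3′ on the gene's strand, with capitals at matches on either strand to the xenobiotic response element core (GCGTG), the AP-1 site (TGANTCA) or the antioxidant response element core (TGANNNNGC). ANXA1 lies on chromosome 9 (chr9:73151615-73151864, plus strand), ANXA2 on chromosome 15 (chr15:60397987-60398236, minus strand), and ANXA3 (chr4:78551520-78551769, plus strand) and ANXA5 (chr4:121696981-121697230, minus strand) both on chromosome 4.
ANXA1: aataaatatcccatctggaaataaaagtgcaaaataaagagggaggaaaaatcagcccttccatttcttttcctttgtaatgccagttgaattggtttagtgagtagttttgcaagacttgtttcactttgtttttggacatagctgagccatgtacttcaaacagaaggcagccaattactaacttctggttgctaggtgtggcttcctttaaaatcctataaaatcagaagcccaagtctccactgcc
ANXA2: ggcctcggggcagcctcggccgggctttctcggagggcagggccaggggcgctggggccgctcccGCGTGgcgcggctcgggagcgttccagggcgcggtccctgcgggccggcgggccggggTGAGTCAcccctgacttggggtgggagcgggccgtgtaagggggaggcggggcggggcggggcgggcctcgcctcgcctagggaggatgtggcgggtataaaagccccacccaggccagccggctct
ANXA3: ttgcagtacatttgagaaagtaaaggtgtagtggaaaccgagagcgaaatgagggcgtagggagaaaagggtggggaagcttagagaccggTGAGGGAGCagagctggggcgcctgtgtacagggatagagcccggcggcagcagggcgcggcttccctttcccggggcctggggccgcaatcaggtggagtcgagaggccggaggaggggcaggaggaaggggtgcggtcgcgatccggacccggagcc
ANXA5: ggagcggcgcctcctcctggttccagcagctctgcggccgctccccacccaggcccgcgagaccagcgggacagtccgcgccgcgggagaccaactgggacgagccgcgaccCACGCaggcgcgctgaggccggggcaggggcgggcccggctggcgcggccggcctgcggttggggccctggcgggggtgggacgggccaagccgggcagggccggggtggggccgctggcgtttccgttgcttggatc
The ANXA1 window had the lowest GC content of these 4, at 38.4%, against 78% for ANXA2, 64% for ANXA3 and 78.8% for ANXA5. It held a TATA box (TATAAA) at position -31, counted from the start site, and 2 CCAAT boxes (CCAAT), and none of the 3 capitalized motifs. The ANXA2 window had the xenobiotic response element core at -185, the AP-1 site at -127, a TATA box at -31 and 3 GC boxes (GGGCGG) that overlapped each other. The ANXA3 window had only the antioxidant response element core, at -159, and the ANXA5 window only the xenobiotic response element core, at -138, and 1 GC box. Among all 35116 promoter windows of this length, 32.2% held GCGTG, 6.57% TGANTCA, 35.2% TGANNNNGC, 10.7% TATAAA, 32% CCAAT and 42.6% GGGCGG, so that apart from the AP-1 site and the TATA box these matches were common. Apart from the GC boxes of ANXA2, no matches in these 4 windows overlapped each other. RefSeq promoters were matched for 8 of the 9 members, the exception being ANXA8.

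Of the 95 wells, 82 carried 1-digit replicate numbers and were used for the tests. The labels do not explain the 2-digit numbers of the other 13, which were kept apart. Total counts of the 82 wells ran from 692446 to 1895735 (median 1293615), and 25 of their 31 population and chemical groups had 3 wells. All 8 basal airway epithelial markers checked were detected (summed level 340.0 to 991 CPM, counts scaled to a common library total). Of 3 ciliated and 3 secretory markers listed, 2 of each were among the symbols counted. Their sums stayed at 0.883 and 0.773 CPM or below (FOXJ1 and MUC5B at 0). The endothelial sum stayed at 5.42 CPM or below (VWF and CDH5 at 0, PECAM1 counted in 65 wells). The fibroblast sum stayed at 15.8 CPM or below. DCN was counted in 74 wells, COL1A1 in 50, LUM in 11, and COL1A2 and PDGFRB in 1 each. Of the 3 leukocyte markers, PTPRC and LST1 had counts in 4 and 6 wells, and CD68 had 4.2 to 37.2 CPM in all 82. Under DMSO NFE2L2, FGFR1 and PIK3CA were 3.39, 5.65 and 5.47 times their HcRed level in the cells that overexpressed them, NRG1 was 107.7 CPM against 0.258 CPM (1 count in 3 HcRed wells), and FAT1 and CDKN2A RNA stood at 0.228 and 0.584 of their GFP level in the knockouts, where the 3′ end read may lie outside the edited part. Each chemical filled its own 2 of the 8 plate rows, so chemical and row cannot be told apart, and NRF2, NRG1, FAT1 and CDKN2A cells always lay in the other row of the pair than both controls. The study calls the wells of a group biological replicates, and whether they were plated from separate cultures of a population is not given in the sources used here, so p-values measure the spread between these wells. The second NRG1 well under NNK stood apart from its group. Fitted NNK values of the members are given with and without it, except for response differences between populations.

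Annexin RNA was abundant and dominated by 3 members. Because 3′DGE counts 1 end per molecule, CPM can be compared between genes without dividing by length. The 9 members together took 0.498% to 0.864% of all counts of a well. ANXA2 gave 53% of the annexin counts of the 82 wells, ANXA1 21.8% and ANXA5 19.1%, with medians of 3554, 1379 and 1306 CPM. ANXA3 (median 170.1 CPM), ANXA4 (125.8 CPM) and ANXA7 (75.2 CPM) were lower but had counts in all 82 wells, and so did ANXA11, at a median of only 9.76 CPM. These 7 members passed the filter on low counts (a mean above 1) in every comparison.

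ANXA6 and ANXA8 did not pass the filter in any comparison. ANXA6 had 28 counts in the whole series, in 20 of 95 wells. Of these, 8 came from 6 of the 11 CDKN2A wells and 11 from 7 of the 12 PIK3CA wells, and the remaining 9 came from 7 of the 72 wells of the other 6 populations. GFP and FGFR1 wells with 1-digit numbers had no ANXA6 count, which allows up to 0.224 and 0.324 CPM (3 counts in the summed library, counting error only). ANXA8 had 1 count. Its last 500 bases hold 455 words of the read length, 46 bases, and all 455 are shared with the near-identical copies ANXA8L1 and ANXA8L2, so that the counts of these 3 symbols are uncertain as a split. ANXA8L2 had counts in all 82 wells (0.936 to 14.1 CPM) and ANXA8L1 had none. The other 8 members share no such word with the annotated transcripts of any other gene, and the processed pseudogenes ANXA2P1, ANXA2P2 and ANXA2P3 had 2, 6 and 1 counts in the 82 wells against 365928 for ANXA2.

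**Figure D1:**
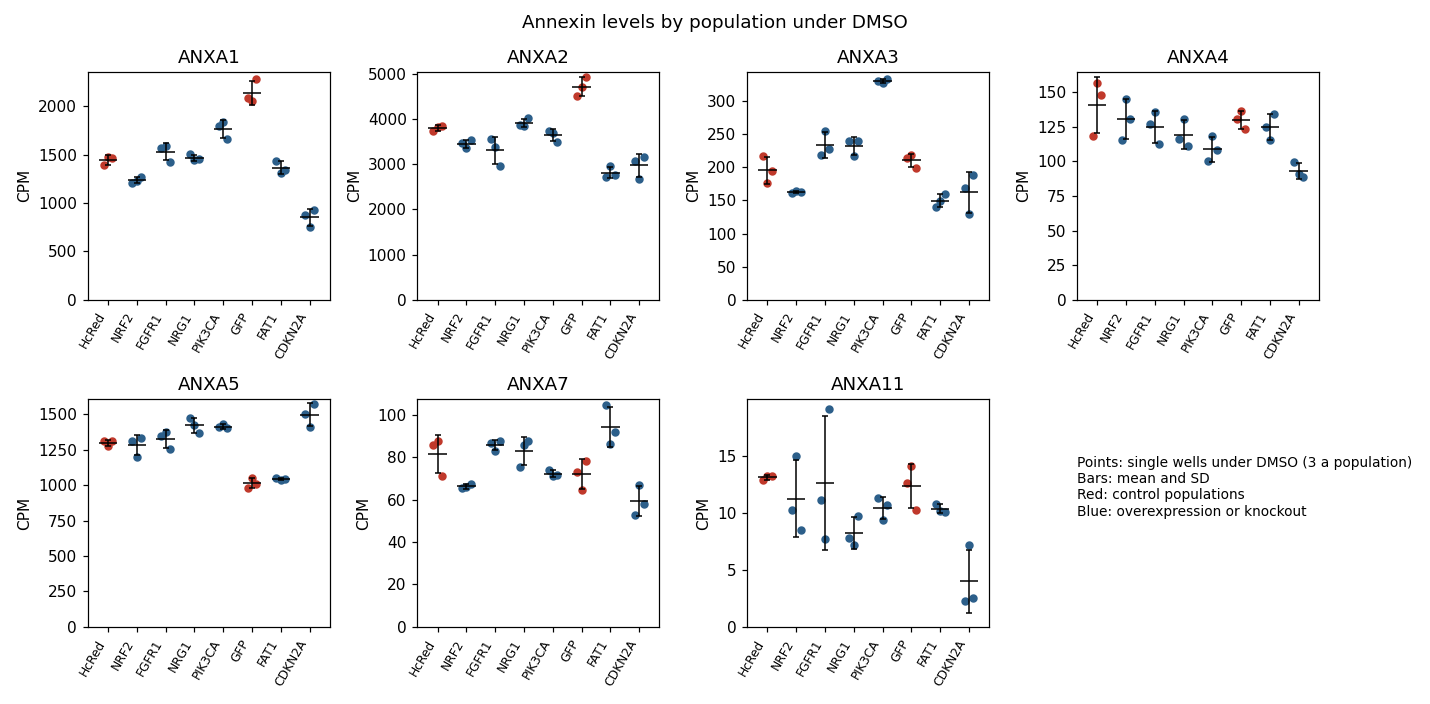
CPM (linear axes from 0) of the 7 detected annexins in each of 3 wells per population under DMSO, with the mean and SD. GFP wells were highest and CDKN2A wells lowest for ANXA1 (means 2141 and 853 CPM). For ANXA5 GFP cells had the lowest mean and CDKN2A cells the highest (1012 and 1495 CPM), with wells that overlapped FAT1 and NRG1 wells, while the PIK3CA wells stood above all others for ANXA3 (331 CPM).

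Under DMSO the members did not share 1 order of the populations. ANXA1 was highest in GFP cells (2141 ± 123 CPM, SD, n = 3), followed by PIK3CA cells (1767 ± 90.7, SD, n = 3), and no well of either overlapped the next population. FGFR1, NRG1, HcRed and FAT1 cells came next (1530, 1470, 1445 and 1366 CPM), each overlapping its neighbour, and NRF2 cells (1236 ± 33.6 CPM, SD, n = 3) and CDKN2A cells (853 ± 87.5 CPM, SD, n = 3) stood below them without overlap. ANXA1 thus covered a 2.51-fold range. ANXA2 was likewise highest in GFP cells (4726 ± 215 CPM, SD, n = 3), but the other 7 populations, from NRG1 at 3917 to FAT1 at 2816 CPM, each overlapped the next. ANXA5 ran the other way at its ends, with CDKN2A cells highest (1495 ± 81.6 CPM, SD, n = 3) and FAT1 and GFP cells lowest (1041 ± 6.07 and 1012 CPM).

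The ratio of ANXA1 to ANXA5 within a well needs no scaling between wells. It averaged 2.12 ± 0.153 (SD, n = 3) in GFP cells and 0.569 ± 0.0292 (SD, n = 3) in CDKN2A cells under DMSO, and 0.967 to 1.31 in the other 6 populations. Over all chemicals and all 95 wells it stayed between 1.8 and 2.29 in the 12 GFP wells and between 0.464 and 0.588 in the 11 CDKN2A wells, and the other populations fell between these without overlap (0.753 to 1.45). This ratio was chosen after the levels had been seen and is a description. In RNA from a whole well, fewer cells of a type and less RNA per cell cannot be told apart.

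ANXA3 was highest in PIK3CA cells, at 331.2, 328.2 and 334.3 CPM, and lowest in FAT1 cells, at 139.7, 149.0 and 159.7 CPM. The PIK3CA wells exceeded every other DMSO well, of which the highest was an FGFR1 well at 255.6 CPM. ANXA7 had its highest mean in FAT1 cells (94.2 CPM), ANXA4 in HcRed cells (141 CPM) and ANXA11 in HcRed cells (13.1 CPM), and CDKN2A cells had the lowest mean of all 3 (59.3, 92.8 and 3.99 CPM). The means spanned 1.52-fold for ANXA4, 1.59-fold for ANXA7 and 3.28-fold for ANXA11, at few counts per well. For ANXA4 each population overlapped the next except PIK3CA with CDKN2A.

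The knockout of CDKN2A, the gene for the cell cycle inhibitors p16INK4a and p14ARF, was compared with GFP cells. ANXA1 read 878.6, 755.3 and 924.5 CPM in the CDKN2A wells under DMSO and 2087, 2054 and 2282 CPM in the GFP wells. The groups did not overlap, and the log2 fold change was -1.44 (SE 0.09), which is given as a description because this value was known when the genes were chosen. ANXA1 was then tested in wells that this value did not use, those under BaP, where CDKN2A cells had 795.5 and 768.2 CPM and GFP cells 1980, 1854 and 1922 CPM. The difference was again larger than the spread between wells, and the log2 fold change was -1.32 (SE 0.05, adjusted p = 8.74e-27, limma). These were further wells of the same populations, and the genes were chosen with earlier results of these data known. In the 2-digit wells, which entered no test, CDKN2A cells read 754.6 to 780.5 CPM under CSC and 798.1 to 800.4 CPM under NNK, below each GFP well of the same chemical. No well of another population, at 1004 CPM or more, reached as low as the highest of the 11 CDKN2A wells (924.5 CPM).

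Besides ANXA1, 5 of the 6 other members tested passed in CDKN2A against GFP cells under DMSO, where 17.9% of the 11575 genes tested did (8.64% higher and 9.22% lower). ANXA2 was 3082, 2683 and 3175 CPM in the CDKN2A wells and 4510, 4728 and 4939 CPM in the GFP wells, so the groups did not overlap (log2 fold change -0.78, SE 0.08, adjusted p = 2.98e-14, limma). ANXA11 fell by 1.86 on the log2 scale (SE 0.41, adjusted p = 0.00031, limma), from 12.6, 14.1 and 10.3 CPM to 2.23, 7.2 and 2.54 CPM, levels at which few molecules are counted per well. ANXA4 (log2 fold change -0.59) and ANXA3 (-0.50) were lower as well. ANXA5 alone rose, from 977.8, 1049 and 1009 CPM in GFP wells to 1503, 1410 and 1572 CPM (log2 fold change 0.45, SE 0.09, adjusted p = 8.9e-05, limma). ANXA7 did not pass (log2 fold change -0.40, SE 0.16, adjusted p = 0.0731).

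Under BaP, 5 of 7 members including ANXA1 passed, against 16.5% of all genes tested (8.94% higher and 7.54% lower). ANXA2 (log2 fold change -0.61, SE 0.03), ANXA3 (-0.44, SE 0.12) and ANXA4 (-0.38, SE 0.13) were again lower and ANXA5 again higher (0.54, SE 0.05, adjusted p = 1.14e-12, limma), whereas ANXA11 (-0.83, SE 0.53, adjusted p = 0.326) and ANXA7 (-0.48, SE 0.17, adjusted p = 0.0505) did not pass. With DESeq2 ANXA3 (adjusted p = 0.0584) and ANXA4 (adjusted p = 0.168) did not pass. Leaving out replicate 1 or 3 left 1 CDKN2A well, whose spread is then taken from the GFP wells, and ANXA3 (log2 fold changes -0.42 and -0.43) and ANXA4 (-0.55 and -0.25) did not pass in those fits. The control mattered for ANXA5. With HcRed cells as the control under DMSO, where 14% of genes passed (6.49% higher and 7.54% lower), ANXA1 (log2 fold change -0.83), ANXA11 (-1.91), ANXA2 (-0.43), ANXA4 (-0.66) and ANXA7 (-0.53) were lower, while ANXA5 (0.13, SE 0.10, adjusted p = 0.435) and ANXA3 (-0.35, adjusted p = 0.0767) did not pass.

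The knockout of FAT1, an atypical cadherin, was compared with the same GFP wells. Under DMSO 4 of 7 members passed, against 14.1% of genes tested (6.39% higher and 7.7% lower), and in the wells under CSC, BaP and NNK the same 4 passed, against 27.8% (13% higher and 14.9% lower). ANXA2 read 2722, 2958 and 2767 CPM in the FAT1 wells, below all GFP wells above, and the log2 fold change was -0.69 (SE 0.03, adjusted p = 1.7e-34, limma) under DMSO and -0.64 (SE 0.03, adjusted p = 1.61e-27, limma) in treated wells. ANXA1 (log2 fold changes -0.60 and -0.57) and ANXA3 (-0.44 and -0.48) were lower too. ANXA7 was higher, at 104.8, 86.09 and 91.81 CPM against 73.02, 64.8 and 78.44 CPM in GFP wells, with log2 fold changes of 0.43 (SE 0.13, adjusted p = 0.0119, limma) and 0.47 (SE 0.08, adjusted p = 3.28e-06, limma). Without GFP replicate 2 the ANXA7 value under DMSO was 0.38 and did not pass. ANXA5, the member that rose in CDKN2A cells, had log2 fold changes of 0.10 and 0.03 here and passed in neither.

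Against HcRed cells the picture of FAT1 cells was different. Under DMSO, where 13.3% of genes passed (6.82% higher and 6.47% lower), ANXA1 stood at 0.04 on the log2 scale (SE 0.05, adjusted p = 0.684, limma), so no difference was detected. In mean CPM, without TMM factors, FAT1 cells were below HcRed cells (1366 and 1445 CPM), so the sign of this value depended on the scaling. ANXA2 stayed lower (log2 fold change -0.31, SE 0.04, adjusted p = 9.1e-09, limma), ANXA5 passed as lower (-0.19, SE 0.05, adjusted p = 0.00875), and ANXA3 (-0.26, adjusted p = 0.0669) and ANXA7 (0.33, adjusted p = 0.0588) no longer passed.

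The controls themselves differed. In GFP against HcRed cells 3 of 7 members passed under DMSO, against 10.8% of genes tested (5.94% higher and 4.86% lower), and the same 3 passed in wells under CSC and NNK, against 16.7% (8.49% higher and 8.17% lower). HcRed wells under DMSO held 1389, 1475 and 1471 CPM of ANXA1 and 3743, 3831 and 3859 CPM of ANXA2, below every GFP well. The log2 fold changes were 0.62 (SE 0.04, adjusted p = 2.28e-18, limma) for ANXA1 and 0.36 (SE 0.02, adjusted p = 3.4e-18, limma) for ANXA2, and 0.55 and 0.26 in treated wells. ANXA5 was lower in GFP cells, by log2 fold changes of -0.31 (SE 0.04, adjusted p = 1.75e-07, limma) under DMSO and -0.42 (SE 0.04, adjusted p = 4.34e-12, limma) in treated wells. The FAT1, CDKN2A and GFP comparisons share the GFP wells, so their values are not independent of each other, and the tests of ANXA1 in FAT1 and GFP cells under DMSO use the GFP wells of the description above. The NRF2, FGFR1, NRG1, PIK3CA and GFP comparisons likewise share the HcRed wells. Over the 17 comparisons of populations and chemicals the median log2 fold change of the 7 members tested ran from -0.59 in CDKN2A cells under DMSO to 0.11 in treated PIK3CA cells, beside medians of all genes from -0.03 to 0.03.

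**Figure D2:**
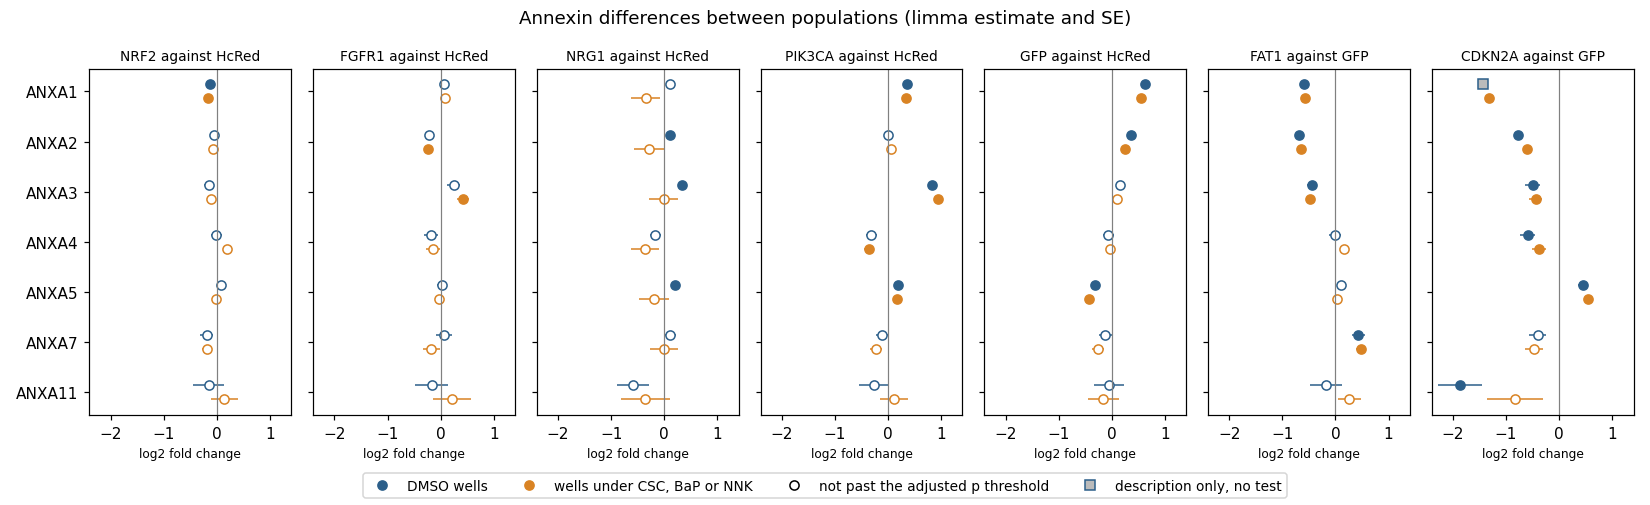
Log2 fold changes (horizontal axis, with SE) of the 7 detected annexins in 7 population comparisons, from DMSO wells (blue) and from wells under CSC, BaP or NNK (orange), filled where the adjusted p passed 0.05. ANXA1 in CDKN2A cells under DMSO, at -1.44, is drawn as a square because it is given as a description, without its test. The wide bars of the orange NRG1 points come from a fit that holds the NRG1 well that stood apart.

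Overexpression of PIK3CA, the catalytic subunit of a lipid kinase, went with higher ANXA3. The PIK3CA wells under DMSO, given above, all exceeded the HcRed wells at 217.3, 176.5 and 194.4 CPM, and the log2 fold change was 0.83 (SE 0.08, adjusted p = 1.57e-12, limma). Under CSC and NNK the difference was 0.94 (SE 0.07, adjusted p = 1.48e-15, limma), and over all 95 wells only 1 well of another population, an FGFR1 well under NNK at 259.9 CPM, reached the PIK3CA range of 256.6 to 345.4 CPM. In all, 3 of 7 members passed under DMSO, against 5.4% of genes tested (3.36% higher and 2.05% lower), and 4 in treated wells, against 8.06% (4.39% higher and 3.67% lower). ANXA1 (log2 fold changes 0.35, SE 0.04, and 0.35, SE 0.03) and ANXA5 (0.19, SE 0.04, and 0.16, SE 0.04) were higher in both, while ANXA4 was lower in treated wells only at this threshold (-0.37, SE 0.08, adjusted p = 0.00199, limma, against -0.31, adjusted p = 0.0797, under DMSO). Without replicate 2 of the treated wells ANXA4 (-0.32) and ANXA5 (0.12) did not pass. ANXA2 differed by 0.00 and 0.06 and passed in neither.

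Overexpression of NRG1, a ligand of the ERBB receptors, gave 3 higher members of 7 under DMSO, against 3.08% of genes tested (2.08% higher and 0.998% lower). ANXA5 read 1474, 1424 and 1369 CPM, above all HcRed wells at 1312, 1273 and 1311 CPM, and the log2 fold change was 0.21 (SE 0.04, adjusted p = 9.01e-05, limma). ANXA2 was higher by 0.12 (SE 0.02, adjusted p = 0.000111, limma), with 1 NRG1 well inside the HcRed range. Its mean CPM differed little (3917 against 3811 CPM), and part of the 0.12 came from the TMM factors. With them the median of all genes was -0.03, and by library totals -0.11. ANXA3 was higher by 0.33 (SE 0.08, adjusted p = 0.00904, limma). With edgeR ANXA2 did not pass (adjusted p = 0.0689). ANXA3 lost its call without HcRed replicate 2 (0.24), NRG1 replicate 1 (0.31) or NRG1 replicate 3 (0.30). In the wells under NNK no member passed with limma, edgeR or DESeq2, and 0.116% of all genes did (0.0178% higher and 0.0981% lower). The lowest unadjusted p of a member there was 0.178. The second NRG1 well had 1032 CPM of ANXA1 and 2797 CPM of ANXA2, against 1315 and 1308, and 3921 and 3805, in the other wells. Without it the share of genes called was 1.04% (0.632% higher and 0.406% lower). The log2 fold change went from -0.35 to -0.06 for ANXA1, from -0.28 to 0.05 for ANXA2, from -0.01 to 0.27 for ANXA3, from -0.37 to -0.11 for ANXA4, from -0.19 to 0.13 for ANXA5, from -0.01 to 0.13 for ANXA7 and from -0.36 to -0.89 for ANXA11, and none passed (lowest adjusted p = 0.365), so a difference under NNK was not detectable with these wells.

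NRF2, the transcription factor of the antioxidant response, and FGFR1, a growth factor receptor kinase, went with smaller differences. In NRF2 cells 1 of 7 members passed under DMSO, against 4.91% of genes tested (3.39% higher and 1.52% lower), and the same gene passed in treated wells, against 6.47% (3.62% higher and 2.84% lower). This was ANXA1, at 1208, 1227 and 1273 CPM, below all HcRed wells, with log2 fold changes of -0.13 (SE 0.04, adjusted p = 0.0406, limma) and -0.16 (SE 0.04, adjusted p = 0.00176, limma). It did not pass under DMSO without HcRed replicate 3 (-0.11), NRF2 replicate 1 (-0.11) or NRF2 replicate 2 (-0.12), nor in treated wells without replicate 1 (-0.10), nor under DMSO with edgeR (adjusted p = 0.0898).

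In FGFR1 cells no member passed under DMSO with limma, edgeR or DESeq2, against 0.914% of genes (0.501% higher and 0.413% lower), although ANXA2 (log2 fold change -0.22, unadjusted p = 0.00404) and ANXA3 (0.25, unadjusted p = 0.041) had unadjusted p-values under 0.05. Without FGFR1 replicate 3, in which ANXA2 was lowest at 2972 CPM, 3 members passed. Under NNK 2 members passed, against 1.52% (0.681% higher and 0.842% lower). FGFR1 wells had 3109, 3210 and 3626 CPM of ANXA2 and HcRed wells 3945, 3824 and 3722 CPM (log2 fold change -0.23, SE 0.05, adjusted p = 0.00108, limma), but ANXA2 did not pass without replicate 1 (-0.15) or with edgeR (adjusted p = 0.128). ANXA3 was higher in every FGFR1 well, at 214.6, 222.7 and 259.9 CPM against 159.6, 162.5 and 188.6 CPM (0.43, SE 0.11, adjusted p = 0.0216, limma), but passed in none of the 3 fits without 1 replicate (0.37 to 0.45).

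**Figure D3:**
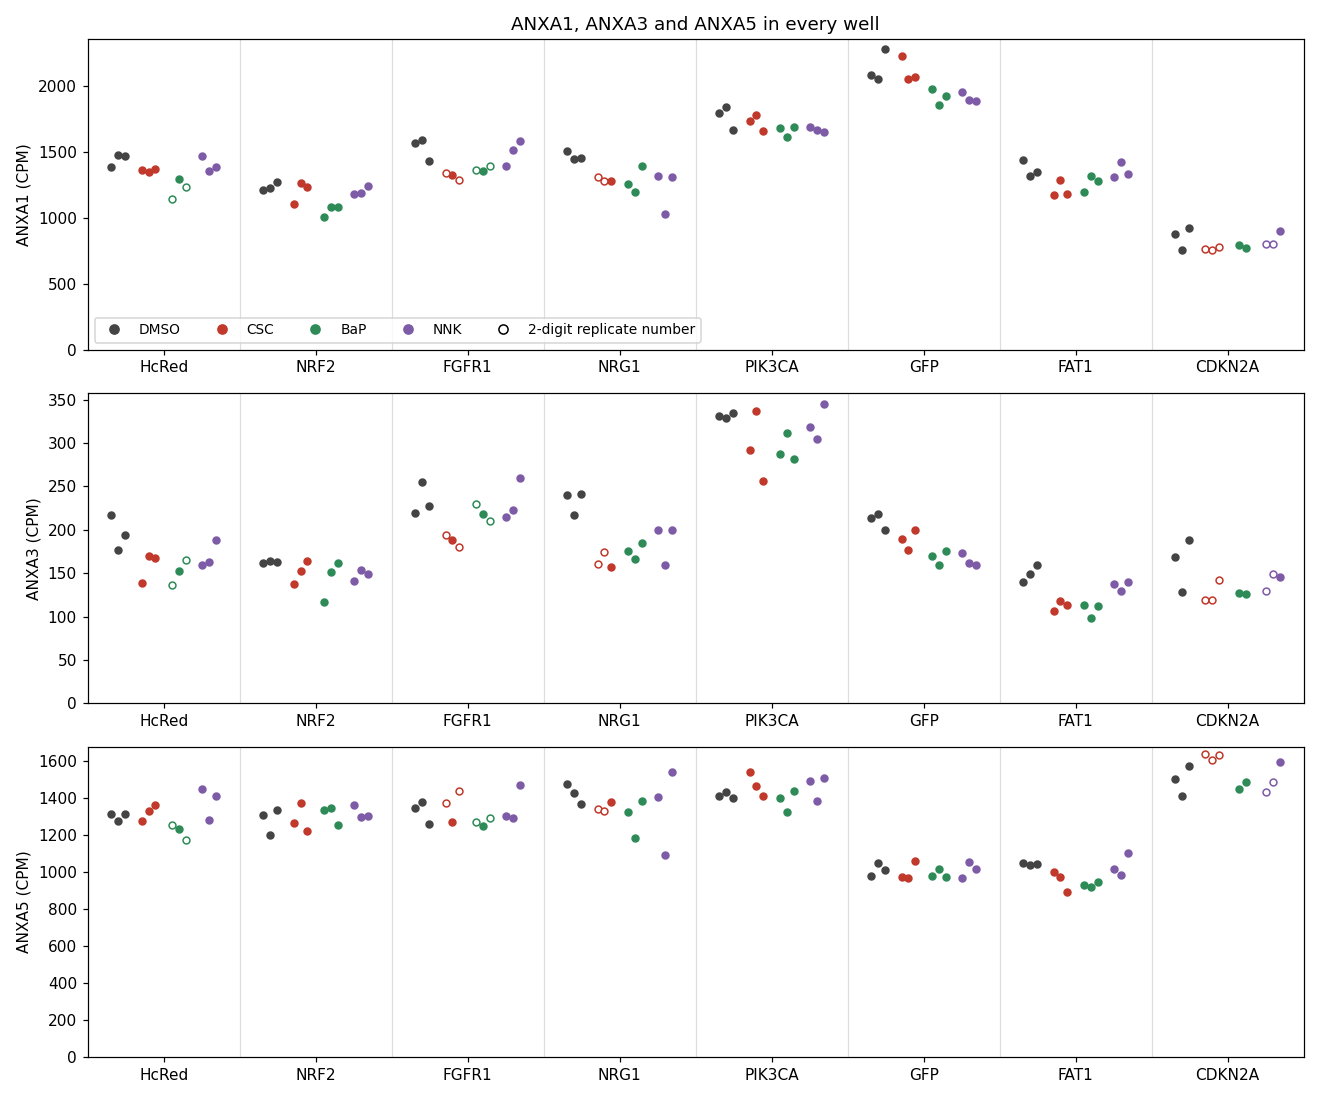
CPM (linear axes from 0) of ANXA1, ANXA3 and ANXA5 in each of the 95 wells, by population and coloured by chemical, with open circles for the 13 wells with 2-digit numbers. The 12 GFP wells of ANXA1 (1854 to 2282 CPM) lie above all other wells and the 11 CDKN2A wells (754.6 to 924.5 CPM) below them, whatever the chemical.

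Under the chemicals the annexins changed little or did not pass. CSC, a mixture from cigarette smoke, BaP, a polycyclic hydrocarbon that activates the aryl hydrocarbon receptor, and NNK, a tobacco-specific nitrosamine, were each compared with DMSO over the populations with 3 wells under both, with population as a covariate. Under CSC (5 populations, 30 wells) 2 of 7 members passed, both lower, against 5.81% of genes tested (2.95% higher and 2.86% lower). Under BaP (5 populations, 30 wells) 2 passed, both lower, against 9.16% (5.04% higher and 4.12% lower), and under NNK (7 populations, 42 wells) none passed with limma, edgeR or DESeq2, against 7.22% (3.07% higher and 4.15% lower). The largest estimate among the members in size was -0.26 on the log2 scale. These 3 comparisons share the DMSO wells.

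ANXA3 was the member with the largest decrease. It fell by 0.21 under CSC (SE 0.05, adjusted p = 0.000769, limma) and by 0.26 under BaP (SE 0.04, adjusted p = 5.12e-06, limma), and its mean was lower in 5 of 5 populations under each. In FAT1 cells the 3 wells went from 139.7, 149.0 and 159.7 CPM under DMSO to 106.2, 118.4 and 113.4 CPM under CSC and 113.1, 98.05 and 112.8 CPM under BaP. Neither treated group overlapped the DMSO wells there, and under BaP the same held in 4 of 5 populations. Under NNK the mean was lower in 7 of 7 populations, with a log2 fold change of -0.13 (SE 0.06, unadjusted p = 0.0354, adjusted p = 0.204, limma), and without the second NRG1 well this was -0.07 (SE 0.04, adjusted p = 0.23). Under CSC ANXA3 did not pass without replicate 1 of each group (-0.17).

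ANXA1 fell by 0.11 under BaP (SE 0.02, adjusted p = 0.000139, limma), with lower means in 5 of 5 populations. In NRF2 cells it went from 1208, 1227 and 1273 CPM to 1004, 1084 and 1083 CPM, and in GFP cells from 2087, 2054 and 2282 CPM to 1980, 1854 and 1922 CPM, without overlap in either. Under CSC the ANXA1 value was -0.07 (SE 0.02, adjusted p = 0.097), also with lower means in 5 of 5 populations. Under NNK its mean CPM was lower in 7 of 7 populations, as for ANXA3. The fitted NNK value of ANXA1 without the second NRG1 well was 0.00 (SE 0.02, adjusted p = 0.997, limma). ANXA2 fell by 0.08 under CSC (SE 0.02, adjusted p = 0.00594, limma), with lower means in 4 of 5 populations, and lost the call without replicate 1 (-0.07) or replicate 3 (-0.07), with DESeq2 (adjusted p = 0.0564) or without the filter on low counts (adjusted p = 0.0765). ANXA4, ANXA5, ANXA7 and ANXA11 passed under none of the 3 chemicals.

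For NNK, 1 well decided the call. Without the second NRG1 well under NNK, 19.9% of genes passed instead of 7.22% (10.2% higher and 9.74% lower), and ANXA5 (log2 fold change 0.11, SE 0.02, adjusted p = 6.43e-05, limma) and ANXA2 (0.07, SE 0.02, adjusted p = 0.01, limma) passed as higher. With that well the values were 0.06 (SE 0.05) and 0.01 (SE 0.05). ANXA1 went from -0.05 to 0.00, ANXA4 from 0.03 to 0.08, ANXA7 from 0.00 to 0.04 and ANXA11 from -0.20 to -0.25, and none of these 4 passed in either fit. These fits use TMM factors. The log2 ratios of mean CPM, which do not and which include that well, were mixed. ANXA5 was higher in 4 of 7 populations and lower in 2 (-0.081 to 0.086), and ANXA2 higher in 4 and lower in 3 (-0.159 to 0.038). In no population did all NNK wells of either gene lie above all DMSO wells.

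Whether a response differed between populations was tested by the population by chemical terms. No member passed with limma for any chemical, where 0.106% of genes passed for CSC, 0.106% for BaP and 0.0176% for NNK. The NNK fit holds the second NRG1 well and is not given without it. The lowest unadjusted p-values of members were 0.00964 for ANXA2 and 0.0114 for ANXA5 under CSC, 0.00937 for ANXA5 under BaP and 0.039 for ANXA1 under NNK, and 4 member tests in all were under 0.05. The counts by edgeR and DESeq2 were 0 for each chemical as well. The mean changes of ANXA3 ranged over the populations from -0.41 to -0.11 under CSC and from -0.47 to -0.18 under BaP, on the log2 scale of the ratio of mean CPM.

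**Figure D4:**
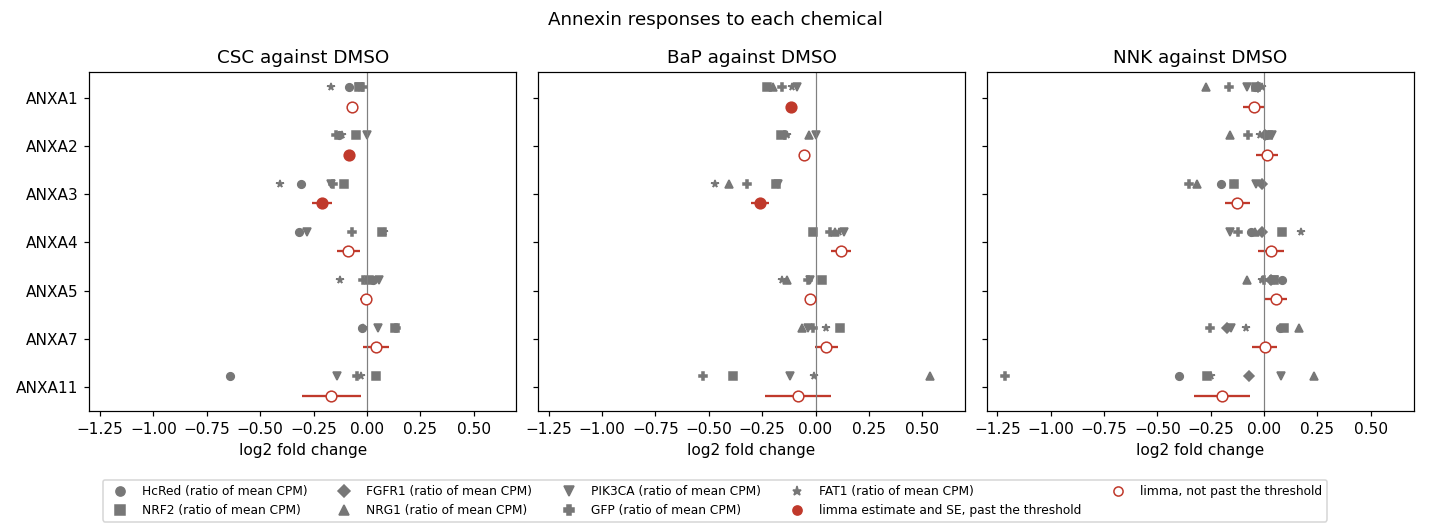
Log2 fold change (horizontal axis) of each annexin under CSC, BaP and NNK against DMSO, with grey symbols for the ratio of mean CPM in each population and red symbols for the limma estimate over populations with its SE, filled where the adjusted p passed 0.05. ANXA1 and ANXA3 lay below 0 in each population under each chemical, and the scattered grey symbols of ANXA11 come from a gene with a median of 9.76 CPM.

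The partners of the annexins were described from a list of 22 genes: S100 proteins, the calcium sensors PDCD6, PEF1 and SRI, the membrane repair proteins AHNAK, MYOF and DYSF, formyl peptide receptors, plasminogen and its activator PLAT, the phospholipase PLA2G4A, the glucocorticoid target TSC22D3, TRPM7, the lipid scramblases PLSCR1, ANO6 and XKR8, and EGFR. Between 15 and 18 of them passed the filter in a comparison. S100A10, the light chain of the ANXA2 complex, was 1794 to 1897 CPM in CDKN2A wells and 1632 to 1730 CPM in FAT1 wells under DMSO, below the GFP wells at 2466 to 2617 CPM. The log2 fold changes were -0.59 (SE 0.08, adjusted p = 1.43e-08, limma) and -0.56 (SE 0.04, adjusted p = 3.14e-22, limma). GFP cells exceeded HcRed cells by 0.28 (SE 0.03, adjusted p = 2.54e-10, limma). S100A10 thus moved in the same direction as ANXA2 in these 3 comparisons, which share the GFP wells. Against HcRed cells S100A10 was -0.32 in CDKN2A (adjusted p = 0.0119, limma) and -0.26 in FAT1 cells (adjusted p = 2.09e-05, limma). In PIK3CA wells under DMSO S100A10 (1732 to 1833 CPM) lay below HcRed wells (2152 to 2232 CPM), whereas ANXA2 wells overlapped. In mean CPM NRF2, FGFR1 and PIK3CA cells were below HcRed cells for both genes, and NRG1 cells for S100A10 only. S100A11, a partner of ANXA1, had -0.59 in CDKN2A, -0.78 in FAT1 and 0.51 in GFP cells, each past the threshold. Against HcRed cells under DMSO it was -0.10 in CDKN2A cells (adjusted p = 0.574, limma) and -0.26 in FAT1 cells (adjusted p = 8.2e-05, limma). In mean CPM under DMSO, S100A11 was below HcRed cells in NRF2, FGFR1, NRG1 and PIK3CA cells, and ANXA1 only in NRF2 cells. In PIK3CA wells S100A11 was 1311 to 1377 CPM, against 1734 to 1798 CPM in HcRed wells.

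In PIK3CA cells under DMSO 6 of 17 partners tested passed, each lower, against 5.4% of all genes called (2.05% lower), among them S100A4 (log2 fold change -1.31, SE 0.19, adjusted p = 1.65e-07, limma), AHNAK (-0.78, SE 0.16), TSC22D3 (-0.73, SE 0.23) and S100A6 (-0.40, SE 0.03), while the 3 annexins that passed were higher. In FAT1 cells 5 of 16 partners passed (14.1% of all genes), with TSC22D3 at -1.09 (SE 0.19) and AHNAK at -0.49 (SE 0.15). In CDKN2A cells 5 of 17 passed (17.9% of all genes), with the ferlin MYOF at -0.87 (SE 0.20) and S100A4 at 0.78 (SE 0.17). Against HcRed cells under DMSO TSC22D3 in FAT1 cells was -0.26 and did not pass (adjusted p = 0.475, limma). AHNAK in FAT1 cells (-0.45), and MYOF (-0.87) and S100A4 (0.50) in CDKN2A cells, passed against HcRed cells as well. In NRG1 cells under DMSO 0 of 18 passed with limma (2 at an unadjusted p under 0.05, 3.08% of all genes called), in NRF2 cells 2 of 17 (4.91% of all genes), in FGFR1 cells 2 of 16 (0.914%) and in GFP against HcRed cells 6 of 16 (10.8%). In treated wells the counts, with the share of all genes called, were 5 of 16 in NRF2 (6.47%), 3 of 15 in FGFR1 (1.52%), 0 of 17 in NRG1 (0.116%, with 1 partner at an unadjusted p under 0.05), 6 of 16 in PIK3CA (8.06%), 10 of 16 in FAT1 (27.8%), 5 of 16 in CDKN2A (16.5%) and 6 of 15 in GFP cells (16.7%). Without the second NRG1 well under NNK no partner passed in NRG1 cells either, against 1.04% of all genes.

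Among the chemicals, S100A6, a partner of several annexins, rose under CSC (log2 fold change 0.37, SE 0.02), BaP (0.38, SE 0.02) and NNK (0.19, SE 0.05, adjusted p = 0.00374, limma), and S100A10 fell by 0.19 under CSC (SE 0.02, adjusted p = 5.08e-10, limma) and by 0.20 under BaP (SE 0.02, adjusted p = 3.23e-14, limma). In all, 2 of 16 partners passed under CSC (5.81% of all genes), 5 of 16 under BaP (9.16%) and 2 of 16 under NNK (7.22%). Without the second NRG1 well under NNK S100A6 rose by 0.24 (SE 0.02, adjusted p = 1.29e-16, limma), and AHNAK (-0.31) and EGFR (-0.40) also passed.

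**Figure D5:**
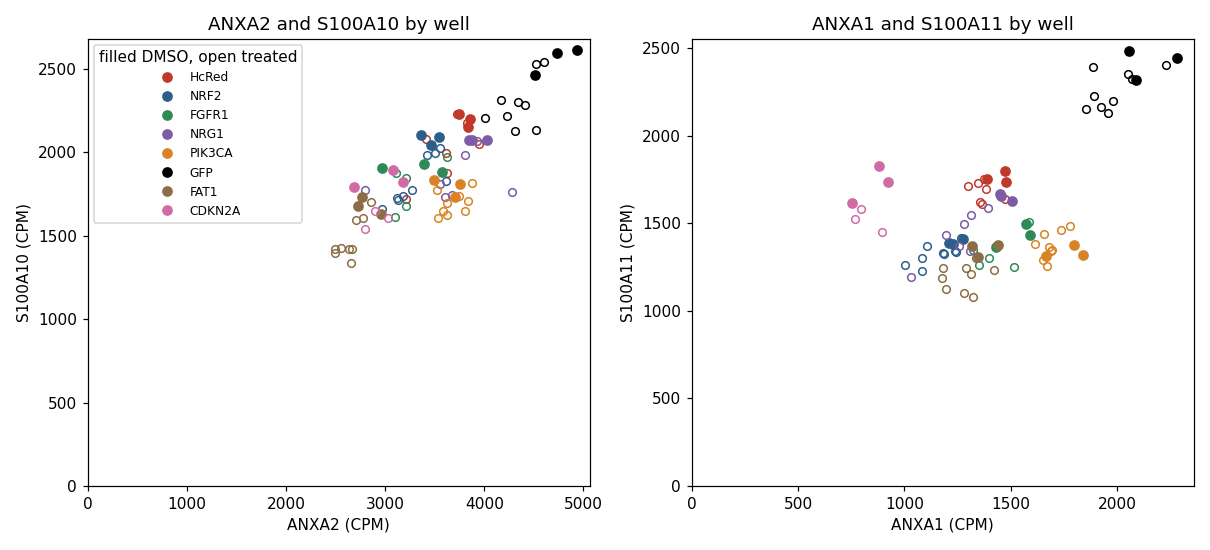
CPM of S100A10 against ANXA2 (left) and of S100A11 against ANXA1 (right) in the 82 wells, coloured by population, filled for DMSO and open for treated wells, with linear axes from 0. The GFP wells sit at the upper right of both plots, and CDKN2A wells sit apart on the right-hand plot, with the lowest ANXA1 (755.3 to 924.5 CPM). S100A11 was below the GFP wells in every other population. Under DMSO its mean in CDKN2A cells (1726 CPM) was near that in HcRed cells (1762 CPM).

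Of the other annexin symbols, ANXA10 was rare, so its fitted values rest on few molecules. It had 209 counts in the 82 wells, and under DMSO CDKN2A cells had 4.84 ± 0.772 CPM (SD, n = 3) and GFP cells 0.28 CPM from 1 count in 3 wells. The CDKN2A wells, at 4.32 to 5.72 CPM, exceeded all 3 GFP wells (at most 0.839 CPM), and the difference passed under DMSO (adjusted p = 0.00356, limma) and under BaP (log2 fold change 1.96, SE 0.57, adjusted p = 0.0104, limma). ANXA10 also rose under CSC (1.83, SE 0.35, adjusted p = 9.31e-05, limma) and BaP (1.62, SE 0.34, adjusted p = 0.000494, limma). ANXA8L2 was lower in CDKN2A cells under DMSO (-1.51, SE 0.51, adjusted p = 0.0253, limma) but not under BaP (0.03, SE 0.66, adjusted p = 0.985, limma). ANXA9, ANXA13 and ANXA2R had 40, 1 and 44 counts in the 82 wells.

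The genes most like each member were found by Pearson's r over the 25 group means of log2(CPM + 1) among 3365 genes. These groups share populations and plate rows, so r is a description. ANXA5 was most like PAICS (r = 0.962), an enzyme of purine synthesis, and TMA16 (0.957), and ANXA2 was most like SNRPC (0.923), a splicing factor, and MRPS10 (0.92), a mitochondrial ribosomal protein. ANXA3 was most like the intermediate filament gene VIM (0.879) and the metallothionein MT1E (0.855), and ANXA1 like SMC5 (0.808) and KIAA0101 (0.807). For ANXA7 these were FAS (0.851) and ITGAE (0.841), for ANXA4 CCDC51 (0.803) and GSTK1 (0.792), and for ANXA11 STOML2 (0.784) and ARL6IP5 (0.727). Among the members themselves, r was 0.706 for ANXA1 with ANXA2, 0.595 for ANXA3 with ANXA5, -0.292 for ANXA1 with ANXA5 and -0.569 for ANXA3 with ANXA4.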

How the data were processed

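The authors obtained 3′DGE counts from a sequencing core: per the labels and the study's methods, reads were aligned to RefSeq transcripts of hg19 with BWA 0.7.10, and reads with the same molecular barcode (UMI) and well barcode were counted once per gene. The deposited files hold these raw counts per gene symbol and well, not normalized. From them CPM were computed over each well's total count. Tests used limma 3.58.1 (voom, TMM factors, R 4.3.3) on the genes with a mean count above 1 in the wells fitted, two-sided, with Benjamini-Hochberg adjustment over all genes tested and a threshold of 0.05. Response differences used a moderated F test. Population comparisons were fitted on the wells of the populations compared, and treated-well comparisons on the chemicals with at least 2 such wells in both populations (CSC and NNK for NRF2, PIK3CA and GFP, NNK for FGFR1 and NRG1, all 3 for FAT1, BaP for CDKN2A), with chemical as a covariate. The code was tested on simulated data. The members and lists were chosen with earlier results of these data known. Named genes are all members, the listed partners and other annexin symbols, and the 2 genes most like each member among those with a mean of at least 20 CPM. Replicate wells differed by more than sampling noise in all 76 pairs (chi-square per degree of freedom 1.13 to 11.8). Same-numbered wells did not deviate together: in no comparison was every correlation of their deviations over 0.1, so the numbers were not used as pairs. The alternatives were edgeR 4.0.16 (quasi-likelihood), DESeq2 1.42.0, median-ratio size factors, no filter, a replicate block, leaving out each replicate and including the 2-digit wells. HcRed cells as control and leaving out the second NRG1 well under NNK were added after seeing the data. Bounds on counts of 0 use 3 counts and cover counting error only.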

Additional observations from a re-analysis of the deposited data

Results flagged for a closer look

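The response of S100A6 differed between populations under CSC (adjusted p = 0.000756, limma, 5 populations) and BaP (adjusted p = 2.38e-09, limma, 5 populations). It was higher than under DMSO in each of the 5, with changes of the mean CPM from 0.24 in NRF2 cells to 0.54 in GFP cells under CSC and from 0.22 to 0.53 in the same populations under BaP, on the log2 scale. The response of S100A11 differed under BaP (adjusted p = 0.0462, limma), from -0.30 in FAT1 cells to 0.03 in PIK3CA cells.

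The wells with 2-digit numbers entered no comparison above. In 108 sets of such wells, 1 for each of the 9 members and 9 other annexin symbols in each of 6 population and chemical groups, 7 sets lay wholly above the DMSO wells of their population and 17 wholly below. For members these were 3 and 15 of 54. The 2 tallies used unlike rules: a set above had to hold more than 3 counts, and a set below had no floor. The sets below thus include ANXA6 in CDKN2A cells, with 0 counts under CSC and 1 under NNK, against 5 under DMSO. Among members that passed the filter on low counts in the wells of a set and its DMSO group, 3 and 14 of 43 sets lay above and below. The 14 still include ANXA6 in CDKN2A cells under NNK, where 8 members passed that filter. Among all genes that passed that filter 9.64% of sets lay above and 17.2% below. The sets below held ANXA1 in 4 groups, ANXA3 in 3, ANXA2, ANXA5, ANXA6 and the other symbol ANXA8L2 in 2 each, and ANXA7 and ANXA11 in 1 each. In HcRed cells under BaP, for example, ANXA1 averaged 1190 CPM (DMSO 1445 CPM), ANXA2 3498 CPM (DMSO 3811 CPM) and ANXA3 150.9 CPM (DMSO 196.1 CPM). The means of those above were 102.6 CPM for ANXA4 in CDKN2A cells under NNK (DMSO 92.8 CPM), 1624 CPM for ANXA5 in CDKN2A cells under CSC (DMSO 1495 CPM) and 98.6 CPM for ANXA7 in FGFR1 cells under CSC (DMSO 85.8 CPM). ANXA10 reached 24.6 CPM in CDKN2A cells under CSC and 6.94 CPM under NNK (DMSO 4.84 CPM), 8.64 CPM in FGFR1 cells under CSC (DMSO 1.25 CPM) and 7.28 CPM in NRG1 cells under CSC (DMSO 1.28 CPM). With 2 or 3 wells in a set these differences were not tested, and what the 2-digit numbers mean is not given in the sources used here.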

How the results depend on the processing

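The count of annexin members past the threshold was compared over the alternatives. Of 190 such counts 166 stayed within 1.5 times the reported one. Of 423 values of single members in the comparisons where they passed, 389 kept their direction and call and 33 kept only the direction. The remaining 1 changed sign: ANXA1 in FAT1 cells, from -0.60 against GFP cells to 0.0407 against HcRed cells. The latter value (SE 0.05, adjusted p = 0.684, limma) was no larger than its error. ANXA5 in FAT1 cells, which did not pass against GFP cells (0.10), was -0.19 and passed against HcRed cells. With edgeR the count was 0 for NRF2 under DMSO (reported 1) and 1 for FGFR1 in treated wells (reported 2). The counts for CDKN2A under DMSO include ANXA1. With DESeq2 it was 3 for CDKN2A in treated wells (reported 5) and 1 for CSC (reported 2). Without the filter it was 1 for CSC and 1 for NNK (reported 0). With HcRed cells as control it was 2 for FAT1 under DMSO (reported 4), and without the second NRG1 well it was 2 for NNK. The cause was not tested. Leaving out single replicates gave ranges of 0 to 1 for NRF2 under DMSO and in treated wells, 0 to 3 for FGFR1 under DMSO and 0 to 1 in treated wells, 2 to 5 for PIK3CA and 3 to 5 for CDKN2A in treated wells (where 1 CDKN2A well can be left, assumed to vary like the GFP wells), 0 to 3 for CSC, 0 to 2 for NNK, and 0 to 1 for the CSC response between populations. With the replicate block the CSC response between populations had 1 member past the threshold (reported 0), and the block moved no other count by over 1.5 times. By library totals, the median of all genes exceeded 0.1 in size in NRF2 (-0.104), NRG1 (-0.11) and CDKN2A cells (0.133) under DMSO. The same held for NRG1 cells in treated wells (0.151). With TMM factors these medians were -0.009, -0.034, 0.031 and 0.014, in the same order. Scaling by library totals reversed no called member. Depth limits ANXA11, ANXA6 and ANXA8 most: at the lowest total, 3 counts are 4.33 CPM.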
